A study of Mus musculus with 12 samples.

Results

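The smooth muscle contractile genes are 10 genes whose products build and regulate the contractile apparatus of smooth muscle cells: Actg2, Acta2, Myh11, Tagln, Cnn1, Myl9, Mylk, Des, Smtn and Synm. Members were the rows of the deposited gene matrix that carry one of these symbols. All 10 were found among 27785 genes, each on 1 line, and all 10 passed the filter on low values.

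RNA of mouse rectum was measured in 12 libraries in 4 groups. Apc, which encodes a negative regulator of Wnt signalling, carries loxP sites in the Apc groups, and creER is a Cre recombinase that acts in the nucleus only with tamoxifen. The Lgr5-Apc group (Lgr5creER;APC flox, n = 4) carries the Cre under Lgr5, a gene of intestinal stem cells, the Cdx2-Apc group (CDX2creER;APC flox, n = 3) carries it under Cdx2, a transcription factor gene of the intestinal epithelium, and the Lgr5-Cdx2-Apc group (Lgr5creER;CDX2creER;APC flox, n = 2) carries both drivers. All 3 are labelled as injected with tamoxifen. The control group (n = 3) is titled WT, while its genotype field reads CDX2creER;APC flox followed by WT in brackets, so it is not settled whether the controls carry the Cre or the floxed allele. No tamoxifen entry stands in the controls' own fields, yet the protocol of tamoxifen at 25 mg/kg on 5 consecutive days is given for every library. Sex, age, strain and the time between injection and collection are not given in the sources used here, and nothing says that the libraries of a group came from separate animals, so p-values measure only the spread between these samples.

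The values are FPKM, fragment counts scaled to transcript length and to library size, which allow levels of different genes to be set side by side. Library totals ran from 451297 to 728462 FPKM, between 20522 and 22562 genes had a value above 0, and short RNAs took between 11.97% and 40.2% of a total. Read depth is unknown, so no counting interval or detection limit is given. Apc itself, measured over the whole gene and not over the floxed exons alone, stood at 15.9 to 18.8 FPKM in control, 14.1 to 18.6 in Lgr5-Apc, 15.3 to 17.6 in Cdx2-Apc and 13.5 to 15.0 in Lgr5-Cdx2-Apc. These levels do not check the labels.

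Smooth muscle forms the muscularis propria and the thin muscularis mucosae of the rectum and the wall of its vessels. Contraction starts when calcium and calmodulin activate myosin light chain kinase, which phosphorylates the regulatory light chain of smooth muscle myosin and lets it pull on actin filaments. Many genes of this apparatus are switched on by serum response factor and its cofactor myocardin, which act through CArG boxes, short DNA elements with the letters CC at one end, GG at the other and A or T between.

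The promoter windows of 3 members are shown because they hold such letters and because the members fell together. RefSeq windows (GRCm38.p6), from 250 bases before to 50 after a start given by RefSeq, were matched for 7 of the 10 members: Acta2, Cnn1, Myl9, Mylk, Des, Smtn and Synm. This start can differ from the outer end of the gene span given below, which comes from GENCODE. The Acta2 boxes lie inside that span, and the Mylk and Smtn windows lie wholly inside theirs. Distances below are from the RefSeq start of the window. The search took CC, 6 bases of A or T, then GG, on both strands, and then allowed 1 of the 6 inner bases to be G or C. The wider search was chosen after the windows had been seen. Capitals mark the matches, and each window reads 5′ to 3′ on the strand of its gene.
Acta2, chr19:34255324-34255623, minus strand: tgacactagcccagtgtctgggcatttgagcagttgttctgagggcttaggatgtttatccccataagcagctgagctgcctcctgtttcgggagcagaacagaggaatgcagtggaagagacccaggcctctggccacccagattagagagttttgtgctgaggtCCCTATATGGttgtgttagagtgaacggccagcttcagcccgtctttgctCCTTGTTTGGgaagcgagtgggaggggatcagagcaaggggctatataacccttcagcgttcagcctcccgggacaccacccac
Myl9, chr2:156775214-156775513, plus strand: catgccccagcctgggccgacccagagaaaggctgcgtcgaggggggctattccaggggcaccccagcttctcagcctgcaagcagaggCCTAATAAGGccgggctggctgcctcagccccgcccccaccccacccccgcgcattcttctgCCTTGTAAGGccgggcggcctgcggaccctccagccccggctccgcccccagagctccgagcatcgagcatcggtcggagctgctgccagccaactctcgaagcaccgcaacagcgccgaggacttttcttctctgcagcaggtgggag
Synm, chr7:67759693-67759992, minus strand: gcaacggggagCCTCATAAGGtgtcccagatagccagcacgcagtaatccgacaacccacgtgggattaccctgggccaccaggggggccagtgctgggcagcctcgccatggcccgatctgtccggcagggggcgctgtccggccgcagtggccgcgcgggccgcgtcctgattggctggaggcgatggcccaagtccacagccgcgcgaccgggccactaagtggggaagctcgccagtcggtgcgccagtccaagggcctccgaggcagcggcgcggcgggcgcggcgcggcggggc
An undeviating box stood in 1 of the 7 windows, CCTAATAAGG in Myl9, whose first base lay 161 bases before the start. With 1 inner G or C allowed, boxes stood in 3 of the 7. The Acta2 window held CCCTATATGG 84 bases and CCTTGTTTGG 34 bases before the start, the Myl9 window also held CCTTGTAAGG 99 bases before it, and the Synm window held CCTCATAAGG 239 bases before it. Among the 18900 windows matched to genes of the table, 1.38% held the undeviating letters and 9.21% the wider ones. A match of letters is not evidence of binding.

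All 10 members were lower in both Lgr5-Cdx2-Apc libraries than in each of the 10 other libraries. Their summed level was 106 and 71.8 FPKM there, against 3401 to 4231 in control, and their share of a library's total was 0.0183% and 0.0121% against 0.572% to 0.734%. The test called 10 of 10 members lower in Lgr5-Cdx2-Apc than in control (limma on log2(FPKM + 1), Benjamini-Hochberg adjusted p below 0.05), where 8.55% of all 17360 genes tested were called lower and 10.5% higher (1485 and 1830 genes, or 1284 and 2650 with short RNAs removed before scaling to equal totals). The median difference of the members was -6.02 on the log2 scale, beside 0.07 over all genes tested. What share of all genes lay lower in both Lgr5-Cdx2-Apc libraries than in every other library is not given here. The full separation of the 10 members is therefore only a description. In these bulk samples, fewer smooth muscle cells and less contractile RNA per cell cannot be told apart.

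**Figure D1:**
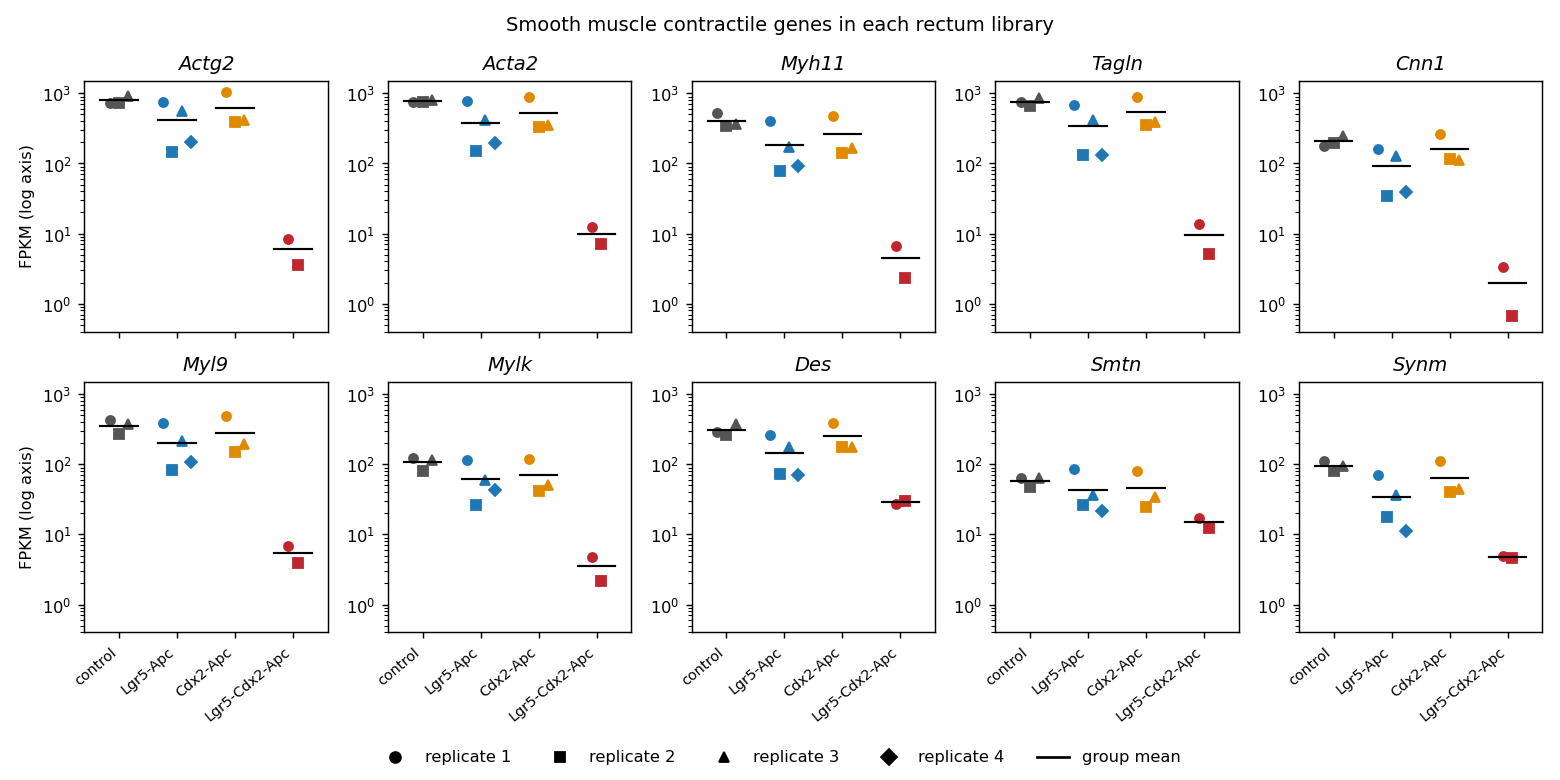
Level of each of the 10 contractile genes in FPKM (log axis) in each of the 12 libraries, by group; each point is 1 library and each line a group mean. The 2 Lgr5-Cdx2-Apc libraries lie below the 10 others for every gene, by the widest margin for Actg2 and the narrowest for Smtn, and replicate 1 is the highest library of Lgr5-Apc and of Cdx2-Apc for every gene.

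The actins form the thin filaments. Actg2 (ENSMUSG00000059430, chr6:83512905-83536265, minus strand, GRCm38), the enteric smooth muscle actin, measured 741, 723 and 921 FPKM in control replicates 1 to 3, and 742, 145, 552 and 204 FPKM in Lgr5-Apc replicates 1 to 4. In Cdx2-Apc replicates 1 to 3 it measured 1029.5, 386 and 419 FPKM, and in the 2 Lgr5-Cdx2-Apc replicates 8.33 and 3.59 FPKM. Lgr5-Apc replicate 1 and Cdx2-Apc replicate 1 were within or above the control range, the other single-driver libraries were below it, and the Lgr5-Cdx2-Apc libraries were far below all others. The Lgr5-Cdx2-Apc mean was 5.96 ± 3.35 FPKM (SD, n = 2) and the control mean 795 ± 109.9 (SD, n = 3), a difference of -6.92 ± 0.69 (SE) on the log2(FPKM + 1) scale (limma, adjusted p = 0.000488). Actg2 thereby had the largest difference of the members.

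Acta2 (ENSMUSG00000035783, chr19:34241090-34255590, minus strand), the smooth muscle actin of vessels, myofibroblasts and gut muscle, followed the same order. It measured 763, 749.6 and 811 FPKM in control, 772, 152, 413 and 195 in Lgr5-Apc, 881, 327 and 355 in Cdx2-Apc, and 12.3 and 7.11 in Lgr5-Cdx2-Apc. The controls were close together, at a ratio of highest to lowest of 1.08, and the Lgr5-Cdx2-Apc libraries did not overlap any other. Acta2 fell by 6.22 ± 0.65 (SE) in Lgr5-Cdx2-Apc against control (limma, adjusted p = 0.000636). The actin genes are very alike in coding sequence, and how reads shared between them were divided is not given in the sources used here. Acta1, the skeletal muscle actin, stood at 211 and 232 FPKM with both drivers, at 205 in Lgr5-Apc replicate 2 and at 1.09 to 12.6 in the other libraries.

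Myosin is the motor. Myh11 (ENSMUSG00000018830, chr16:14194535-14291372, minus strand), the smooth muscle myosin heavy chain, measured 519.8, 339.8 and 368 FPKM in control, 402, 78.5, 171 and 92.4 in Lgr5-Apc, 475, 141 and 168 in Cdx2-Apc, and 6.68 and 2.32 in Lgr5-Cdx2-Apc. Myl9 (ENSMUSG00000067818, chr2:156775420-156781658, plus strand), the regulatory light chain that is phosphorylated at contraction, measured 424, 268 and 373 FPKM in control, 389, 83.7, 216 and 107 in Lgr5-Apc, 490.3, 149 and 197 in Cdx2-Apc, and 6.77 and 3.93 in Lgr5-Cdx2-Apc. For both genes replicate 1 of each single-driver group lay within or above the control range and the rest below it. Mylk (ENSMUSG00000022836, chr16:34745210-35002420, plus strand), the kinase of that light chain, measured 124, 79.2 and 117 FPKM in control, 117, 26.2, 59.6 and 43.0 in Lgr5-Apc, 118, 41.1 and 51.1 in Cdx2-Apc, and 4.81 and 2.17 in Lgr5-Cdx2-Apc. Its libraries stood in the same relation. Against control in Lgr5-Cdx2-Apc, Myh11 fell by 6.32 ± 0.71 (SE), Myl9 fell by 5.82 ± 0.65 and Mylk fell by 4.62 ± 0.59 on the log2 scale, with limma's adjusted p at 0.00109, 0.00104 and 0.00189.

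Tagln and Cnn1 encode actin-binding proteins of the thin filament, transgelin and calponin 1, of which calponin slows the myosin ATPase. Tagln (ENSMUSG00000032085, chr9:45929619-45936058, minus strand) measured 758, 652 and 868 FPKM in control, 672, 133, 420.3 and 130.5 in Lgr5-Apc, 892, 354 and 385 in Cdx2-Apc, and 13.9 and 5.11 in Lgr5-Cdx2-Apc. Cnn1 (ENSMUSG00000001349, chr9:22099216-22109630, plus strand) measured 179, 196 and 243 FPKM in control, 161, 33.8, 129 and 39.4 in Lgr5-Apc, 265, 114 and 112 in Cdx2-Apc, and 3.30 and 0.657 in Lgr5-Cdx2-Apc. For Cnn1 all 4 Lgr5-Apc libraries lay below the lowest control, and Lgr5-Cdx2-Apc replicate 2 held the lowest value of any member in any library. Tagln fell by 6.31 ± 0.72 (SE) and Cnn1 by 6.27 ± 0.70 in Lgr5-Cdx2-Apc against control (limma, adjusted p = 0.00121 and 0.00104).

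Smtn (ENSMUSG00000020439, chr11:3517523-3540612, minus strand) encodes smoothelin, an actin-binding protein of contractile smooth muscle, and differed least. It measured 63.6, 47.2 and 63.0 FPKM in control, 86.9, 25.9, 36.3 and 21.6 in Lgr5-Apc, 79.1, 24.2 and 33.7 in Cdx2-Apc, and 17.4 and 12.5 in Lgr5-Cdx2-Apc. The lowest other library, Lgr5-Apc replicate 4, stood above the higher Lgr5-Cdx2-Apc library by a factor of 1.24. Smtn fell by 1.89 ± 0.58 (SE) in Lgr5-Cdx2-Apc against control (limma, adjusted p = 0.0446). The call was lost, with adjusted p from 0.0596 to 0.252, without any 1 of the 3 controls, Lgr5-Apc replicate 3, Cdx2-Apc replicate 3 or either Lgr5-Cdx2-Apc library. It was also lost in 5 other alternatives, with adjusted p from 0.0507 to 0.0826.

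Des and Synm encode intermediate filament proteins, desmin and synemin, which tie the contractile units together and are also present in skeletal and cardiac muscle. Des (ENSMUSG00000026208, chr1:75360329-75368579, plus strand) measured 292, 265 and 371 FPKM in control, 262.3, 71.6, 176 and 70.0 in Lgr5-Apc, 395, 176 and 178 in Cdx2-Apc, and 27.6 and 29.7 in Lgr5-Cdx2-Apc. Synm (ENSMUSG00000030554, chr7:67730160-67759742, minus strand) measured 112, 80.9 and 95.5 FPKM in control, 71.2, 17.8, 36.8 and 11.1 in Lgr5-Apc, 110.0, 39.9 and 44.2 in Cdx2-Apc, and 4.93 and 4.66 in Lgr5-Cdx2-Apc. For both genes every Lgr5-Apc library was below the lowest control. The 2 Lgr5-Cdx2-Apc libraries nearly coincided for these genes, with means of 28.7 ± 1.52 FPKM (SD, n = 2) for Des and 4.79 ± 0.191 (SD, n = 2) for Synm, while their values for Cnn1 differed 5.02-fold. Des fell by 3.37 ± 0.56 (SE) and Synm by 4.05 ± 0.66 in Lgr5-Cdx2-Apc against control (limma, adjusted p = 0.00597 and 0.00536).

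**Figure D2:**
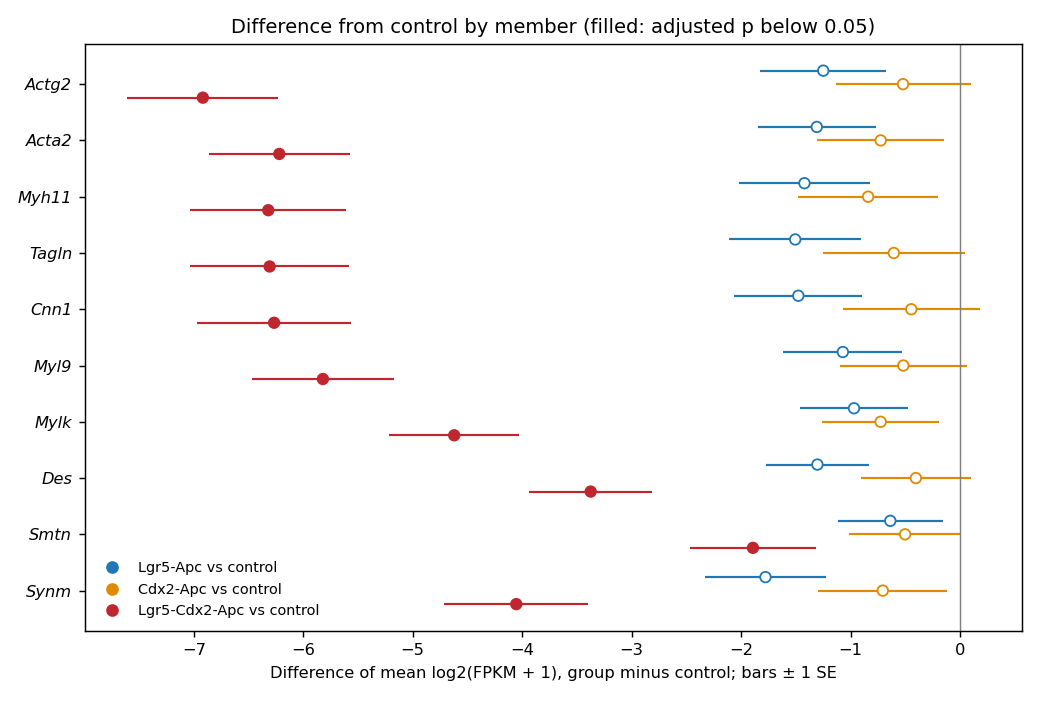
Difference of each Apc group from control for the 10 contractile genes, in log2(FPKM + 1), with bars of ± 1 SE; filled points have an adjusted p below 0.05. Lgr5-Cdx2-Apc differences run from -6.92 for Actg2 to -1.89 for Smtn and are all filled, and those of the single-driver groups lie between -1.78 and -0.40 and are all open.

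The group with both drivers also stood below each single-driver group. Against Lgr5-Apc, 9 of 10 members were called lower (3.77% of all genes tested were), with a median difference of -4.77 and a largest difference of -5.67 for Actg2. Against Cdx2-Apc, 9 of 10 were called lower (11.7% of all genes tested), with a median of -5.39 and -6.40 for Actg2. The calls of Des (-2.07, limma, adjusted p = 0.0410) and Synm (-2.28, adjusted p = 0.0486) against Lgr5-Apc were near the threshold and were lost in 14 and 18 of 24 alternatives, with adjusted p up to 0.302 and 0.333. Both were lost without any 1 of the 3 controls, Lgr5-Apc replicate 1 or 3, Cdx2-Apc replicate 2 or 3 or either Lgr5-Cdx2-Apc library, and Synm also without Cdx2-Apc replicate 1. In both comparisons the member not called was Smtn, at -1.26 ± 0.55 (SE) against Lgr5-Apc (limma, adjusted p = 0.158) and -1.39 ± 0.58 against Cdx2-Apc (adjusted p = 0.101). These comparisons share the Lgr5-Cdx2-Apc libraries with the one against control. They rest on 2 libraries: without Lgr5-Cdx2-Apc replicate 2 the counts were 6 against control, 0 against Lgr5-Apc and 5 against Cdx2-Apc, and the remaining library was then assumed to vary like the other groups. Without Lgr5-Cdx2-Apc replicate 2 the members lost against control were Mylk, Des, Smtn and Synm. A fit on the 2 compared groups alone called 2 members lower against Lgr5-Apc. The share of all genes called in these alternative fits is not given here, so a general drop in calls cannot be told apart.

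None of the 10 members was called different between Lgr5-Apc and control (0.0115% of all genes tested were called lower). All 10 differences were below 0, from -1.78 for Synm to -0.64 for Smtn with a median of -1.31, and limma's adjusted p ran from 0.41 to 0.624. At an unadjusted p below 0.05, 6 members were lower, beside 4.77% of all genes. Synm had the smallest unadjusted p of the 10 members, 0.0086 (limma), with a 95% interval of the difference from -2.997 to -0.56. The spread among the 4 libraries was wide: the ratio of the highest to the lowest ran from 3.74 for Des to 6.42 for Synm, where it ran from 1.08 to 1.58 in control. Lgr5-Apc replicate 1 was near the controls, replicate 3 was intermediate and replicates 2 and 4 were lowest. The members made up 0.807%, 0.124%, 0.402% and 0.182% of the total in replicates 1 to 4. Cnn1, Des and Synm were the 3 members whose Lgr5-Apc and control libraries did not overlap. The share of all genes without such overlap is not given here, so the count is only a description.

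Cdx2-Apc showed the same kind of split between its libraries. None of the 10 members was called against control (0.0115% of all genes tested were called lower), and 0 were lower at an unadjusted p below 0.05, beside 0.714% of all genes. Differences ran from -0.84 for Myh11 to -0.40 for Des, with a median of -0.56 and adjusted p of 1 for each (limma). For Actg2 the 95% interval of the difference was from -1.89 to 0.85, which covers a fall as well as a rise. The members made up 0.866% of the total in replicate 1, above every control, and 0.388% and 0.349% in replicates 2 and 3, below every control. No member had all its Cdx2-Apc libraries below all controls, and here too the share of all genes is not given.

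Between the single-driver groups, 0 of 10 members were called lower in Lgr5-Apc than in Cdx2-Apc (0.0288% of all genes tested were). At an unadjusted p below 0.05 the count was also 0, beside 6.01% of all genes. The differences ran from -1.07 for Synm to -0.13 for Smtn, with a median of -0.66 and limma's adjusted p from 0.519 to 0.94. The sign for Mylk and Smtn changed in some alternatives.

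The departure from additivity asks whether the difference of Lgr5-Cdx2-Apc from control equals the sum of the single-driver differences on the log2 scale. For Actg2 the single-driver differences were -1.25 in Lgr5-Apc and -0.52 in Cdx2-Apc, and the group with both drivers lay a further -5.15 ± 0.90 (SE) below their sum (limma, adjusted p = 0.0236). In all, 4 of 10 members were called, where 0.392% of all genes tested were called in this direction: besides Actg2 these were Acta2 at -4.19 (adjusted p = 0.0393), Myl9 at -4.23 (adjusted p = 0.0386) and Cnn1 at -4.34 (adjusted p = 0.0473). Tagln at -4.20 and Myh11 at -4.06 were not called (limma, adjusted p = 0.0606 and 0.0642), nor were Mylk at -2.93, Des at -1.67, Synm at -1.57 and Smtn at -0.75. The count is unstable. It was 0 without control replicate 1 or 2, without any 1 of the Cdx2-Apc libraries or without either Lgr5-Cdx2-Apc library. It was 1 without control replicate 3 or Lgr5-Apc replicate 3, 2 when Lgr5-Apc replicate 1 was left out, and 7 when replicate 2 of that group was.

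The order of the members also differed in the Lgr5-Cdx2-Apc libraries. In the 10 other libraries the 3 highest members were Actg2, Acta2 and Tagln, each between 14.3% and 25.0% of the members' summed FPKM, and the lowest was Smtn or Synm. In both Lgr5-Cdx2-Apc libraries Des was the highest, at 26.0% and 41.4% of the sum against 7.14% to 10.04% elsewhere, and Smtn was next, at 16.4% and 17.4% against 1.38% to 3.38%. Cnn1 was the lowest in both. The ratio of Des to Actg2 was 0.319 to 0.495 in the 10 other libraries and 3.31 and 8.29 in Lgr5-Cdx2-Apc. That of Smtn to Actg2 was 0.0628 to 0.179 and then 2.09 and 3.47. Lgr5-Apc replicate 2 had the highest value of both ratios among the 10. These shares are descriptions and carry no test.

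**Figure D3:**
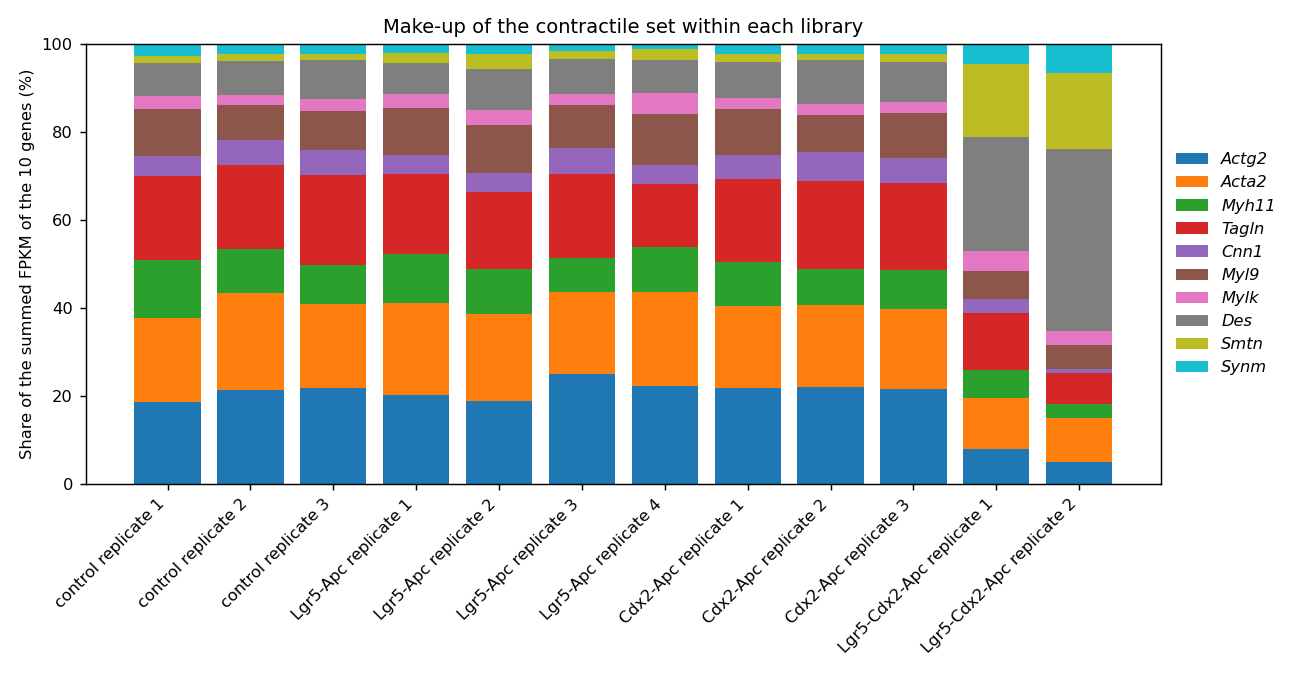
Share of each of the 10 contractile genes in their summed FPKM (percent), 1 stacked bar per library in the 4 groups. Des and Smtn take 26.0% and 41.4%, and 16.4% and 17.4%, of the bars of the 2 Lgr5-Cdx2-Apc libraries, where Actg2, Acta2 and Tagln are the 3 highest members in the 10 other bars.

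The members varied together across libraries. Over the 12 libraries the Pearson correlation of log2(FPKM + 1) between the 45 pairs of members ran from 0.841 for Actg2 and Smtn to 0.998 for Tagln and Cnn1, with a median of 0.963. Over the 10 libraries without Lgr5-Cdx2-Apc it ran from 0.809 for Cnn1 and Smtn to 0.995 for Tagln and Des, with a median of 0.952. The points share their libraries, and with them the make-up of the tissue piece, so these values are descriptive.

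Of 9355 candidate genes, those whose pattern was most like the members' mean over the 12 libraries were Fam129a, Synpo2, Sparcl1, Foxp2, Mrvi1, Lmod1, Kcnf1, Rims1, Rbpms2 and Adcy5, with Pearson correlations from 0.994 down to 0.973. Synpo2 (synaptopodin 2, an actin-bundling protein) measured 74.1 to 99.4 FPKM in control, 20.2 to 83.0 in Lgr5-Apc, 30.3 to 84.3 in Cdx2-Apc, and 3.41 and 3.00 in Lgr5-Cdx2-Apc. Like the members, it was high in replicate 1 of each single-driver group and did not overlap between Lgr5-Cdx2-Apc and the rest. The named genes were picked by their likeness over these same libraries, so their patterns are descriptions and no separate result. Sparcl1, a secreted matrix protein, stood at 93.8 to 114 FPKM in control and 6.50 and 5.29 in Lgr5-Cdx2-Apc. Lmod1, which nucleates smooth muscle actin filaments, measured 14.3 to 19.2 FPKM in control and 0.596 and 0.530 in Lgr5-Cdx2-Apc.

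Other genes of the apparatus were read from lists chosen with earlier results of these data known. Among the partners of the thin filament and cytoskeleton, 16 of 18 were called lower in Lgr5-Cdx2-Apc than in control (8.55% of all genes tested were). Their median was -2.40. Synpo2 fell by 4.41 ± 0.57 (SE), Cald1, the actin-binding inhibitor caldesmon, by 4.21 ± 0.63, Pgm5, a protein of adherens-type junctions of muscle, by 3.80, and Lmod1 by 3.47 (limma, adjusted p from 0.00192 to 0.00485). Cald1 measured 83.5 to 127 FPKM in control and 4.40 and 4.11 in Lgr5-Cdx2-Apc. Actn1 at -0.85 (adjusted p = 0.0567) and Dmd at -0.36 (adjusted p = 0.332) were not called. The median was thus nearer 0 than that of the 10 members, a difference that was not tested. The 1 FPKM added before the log limits the fall that genes of low level can show. Medians of lists with different levels are therefore not like for like.

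Of 10 regulators of light chain phosphorylation and cyclic GMP signalling, 5 were called lower (8.55% of all genes tested were), with a median of -1.57. Pde5a, the phosphodiesterase that degrades cyclic GMP, fell by 3.20 (limma, adjusted p = 0.00285), Ppp1r14a, an inhibitor of the phosphatase, fell by 2.46 (adjusted p = 0.0172), Gucy1a1, a subunit of the nitric oxide receptor, by 2.21 (adjusted p = 0.0104), and Ppp1r12b, a targeting subunit of the phosphatase, by 2.06 (adjusted p = 0.0154). Ppp1r12a, the widely expressed targeting subunit, was not called, at -0.86. Of 10 genes of calcium handling and ion channels, 8 were called lower (again beside 8.55% of all genes tested), with a median of -1.81. Chrm2, a muscarinic acetylcholine receptor, fell by 3.26 (adjusted p = 0.00318), Pln, the inhibitor of the sarcoplasmic reticulum calcium pump, by 2.71 (adjusted p = 0.00301), Kcnmb1, a subunit of the large-conductance potassium channel, by 2.70 (adjusted p = 0.0155) and Itpr1, a calcium release channel, by 1.74 (adjusted p = 0.0142). Atp2b4 at 0.09 and Cacnb2 at -0.66 were not called. Chrm2 measured 8.43 to 12.5 FPKM in control and 0.286 and 0.0356 in Lgr5-Cdx2-Apc. Kcnmb1 measured 4.97 to 6.70 FPKM in control and 0.0680 and 0.0957 in Lgr5-Cdx2-Apc. At such levels the 1 FPKM added before the log limits the fall on the log2 scale.

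Among 9 genes of transcriptional control, 3 were called lower (8.55% of all genes tested were) and the median was -0.51. Myocd, which encodes the cofactor myocardin, measured 7.67, 4.27 and 5.42 FPKM in control, 6.55, 1.43, 3.06 and 1.18 in Lgr5-Apc, 6.18, 2.02 and 2.85 in Cdx2-Apc, and 0.163 and 0.0656 in Lgr5-Cdx2-Apc. Its libraries had the order of the contractile genes, and it fell by 2.58 ± 0.52 (SE) in Lgr5-Cdx2-Apc against control (limma, adjusted p = 0.0123). At its control levels, the 1 FPKM added before the log leaves no room for a fall as large as the members' median. Foxf1, a transcription factor of gut mesenchyme, fell by 2.99 ± 0.55 (adjusted p = 0.00878). It measured 5.26 to 11.5 FPKM in control and 0.182 and 0.120 in Lgr5-Cdx2-Apc. Gata6 fell by 1.30 (adjusted p = 0.0481). Srf, the partner of myocardin, measured 17.4, 10.03 and 18.5 FPKM in control and 10.8 and 9.40 in Lgr5-Cdx2-Apc and was not called, at -0.51 (adjusted p = 0.169). Mrtfa at 0.28 and Mrtfb at -0.12 were not called. Mef2c went the other way, at 1.03, and was not called. It measured 2.02 to 3.56 FPKM in control and 5.52 and 7.50 in Lgr5-Cdx2-Apc.

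The non-muscle counterparts, which do the same work in cells of most kinds, gave 2 called lower of 13 and a median of -0.25. Beside 8.55% of all genes tested, so small a count is only a description. Myl6 at -1.79 (limma, adjusted p = 0.00336) and Myl12b at -1.56 (adjusted p = 0.0209), both myosin light chains, were the called genes. Myl6 measured 193 to 225 FPKM in control and 66.5 and 55.7 in Lgr5-Cdx2-Apc. Actb, the cytoplasmic beta actin, measured 1995.9 to 2510.0 FPKM in control and 1403 and 1458 in Lgr5-Cdx2-Apc, and was not called, at -0.63 (adjusted p = 0.239). None of the genes of the 5 lists was called in Lgr5-Apc or in Cdx2-Apc against control.

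**Figure D4:**
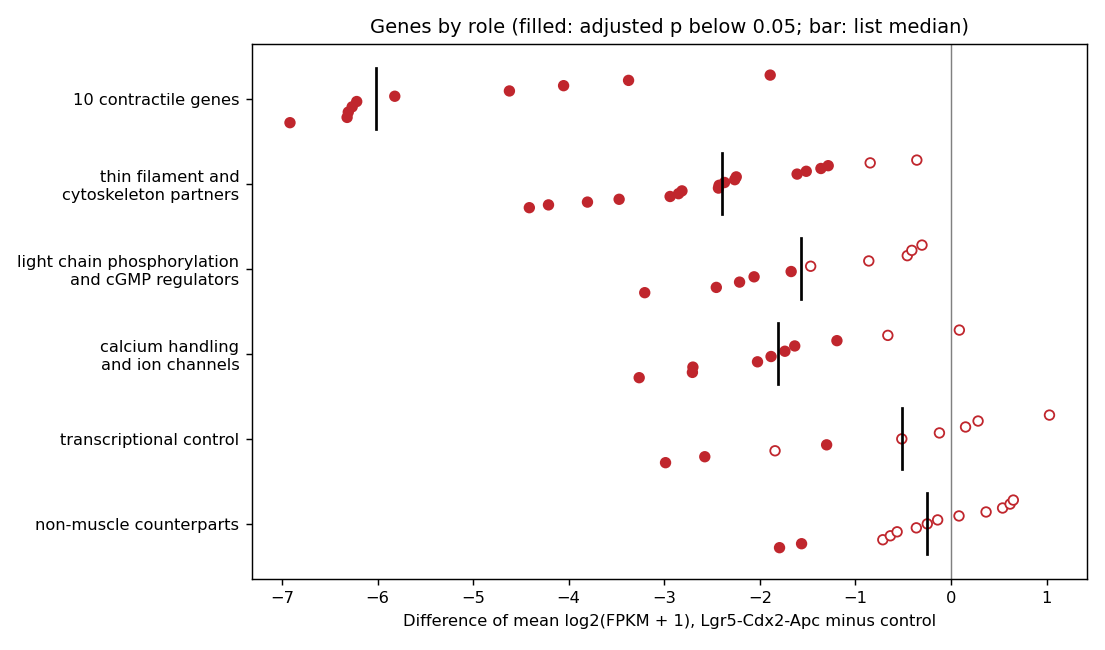
Differences of Lgr5-Cdx2-Apc from control in log2(FPKM + 1) for the 10 contractile genes and 5 further lists, 1 point per gene and a line at each list's median; filled points have an adjusted p below 0.05. Medians run from -6.02 for the contractile genes through -2.40 for their thin filament partners to -0.25 for the non-muscle counterparts. The 1 FPKM added before the log limits the fall of genes with a low level, so the medians are not like for like.

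The tissue pieces also differed in markers of other cell types, and these values belong beside every result above. A marker score is the mean log2(FPKM + 1) of a list. Skeletal muscle markers, 12 genes with a summed level of 15.1 to 27.5 FPKM in control and 5.36 to 16.0 in Cdx2-Apc, summed to 502 and 598 FPKM with both drivers and to 536 in Lgr5-Apc replicate 2. The other Lgr5-Apc libraries summed to 7.69 to 56.6. In Lgr5-Cdx2-Apc against control 8 of the 12 were called higher, with 10 tested (10.5% of all genes tested were). Of their defining genes Myh4 was near 0 in all libraries, at no more than 0.0642 FPKM. Squamous epithelium scored 7.29 and 9.20 in Lgr5-Cdx2-Apc, 10.4 in Lgr5-Apc replicate 2 and 9.64 in replicate 3 of that group. It scored 7.53 in control replicate 1 and 1.02 to 5.70 in the other 7 libraries. Of its 10 markers, 2 were called higher in Lgr5-Cdx2-Apc than in control (10.5% of all genes tested were). Their median difference was 4.86. Krt4 and Krt13 went the other way in Lgr5-Cdx2-Apc replicate 1, at 1.44 and 1.28 FPKM. In replicate 2 they measured 494 and 118, and in control 9.46 to 701 and 13.1 to 1015 FPKM. Columnar epithelium scored 6.27 and 3.62 in Lgr5-Cdx2-Apc and 6.14 in Lgr5-Apc replicate 2, against 7.92 to 8.63 in the rest. Of its 10 markers, 9 were called lower in Lgr5-Cdx2-Apc than in control (8.55% of all genes tested were). Des and Synm are also expressed in skeletal muscle. The part of these differences in the results was not tested.

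Lgr5-Apc replicate 2 allows a side-by-side reading. Its scores were 4.58 for skeletal muscle, 10.4 for squamous and 6.14 for columnar epithelium, beside 4.31, 7.29 and 6.27 in Lgr5-Cdx2-Apc replicate 1 and 4.59, 9.20 and 3.62 in replicate 2 of that group, whose columnar score was much lower. Its mean score over the contractile genes was 5.93, beside 3.30 and 2.55 in those libraries and 7.88 to 8.23 in control. Actg2 was 145 FPKM in Lgr5-Apc replicate 2 and 8.33 and 3.59 with both drivers. The squamous markers limit this reading. Krt4 and Krt13 measured 7351 and 5071 FPKM in Lgr5-Apc replicate 2. With both drivers Krt4 measured 1.44 and 494 FPKM, and Krt13 1.28 and 118. Krt6a, Sprr1a and Lor were also higher in Lgr5-Apc replicate 2, Krt5 and Krt14 were lower, and Krt1, Krt10 and Ivl lay between. The tissue was thus not matched, and its part in the contractile levels was not tested. Without control replicate 1 and Lgr5-Apc replicates 2 and 3, 9 members were called lower in Lgr5-Cdx2-Apc against control, all but Smtn. This alternative was chosen after the data were seen, and the share of all genes called in it is not given here.

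Other cells of the muscle layers and the stroma moved less uniformly. Fibroblast markers summed to 147 to 519.6 FPKM in control and 399 and 612 in Lgr5-Cdx2-Apc, and 0 of 7 were called. Endothelial markers summed to 9.84 to 25.9 FPKM in control and 12.9 and 15.7 in Lgr5-Cdx2-Apc, with 0 of 5 called. Among 6 pericyte markers, 2 were called lower, beside 8.55% of all genes tested. These were Kcnj8 at -1.83 and Abcc9 at -1.85, both subunits of one potassium channel (limma, adjusted p = 0.00396 and 0.0150). The other 4 were not called, at -2.31 for Rgs5, -0.01 for Pdgfrb, 0.55 for Cspg4 and 2.94 for Notch3 (limma, adjusted p = 0.0740, 0.985, 0.344 and 0.0982). Kit and Ano1, markers of the interstitial cells of Cajal that pace gut muscle, summed to 50.6 to 69.7 FPKM in control and 27.6 and 27.3 in Lgr5-Cdx2-Apc, with neither called.

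**Figure D5:**
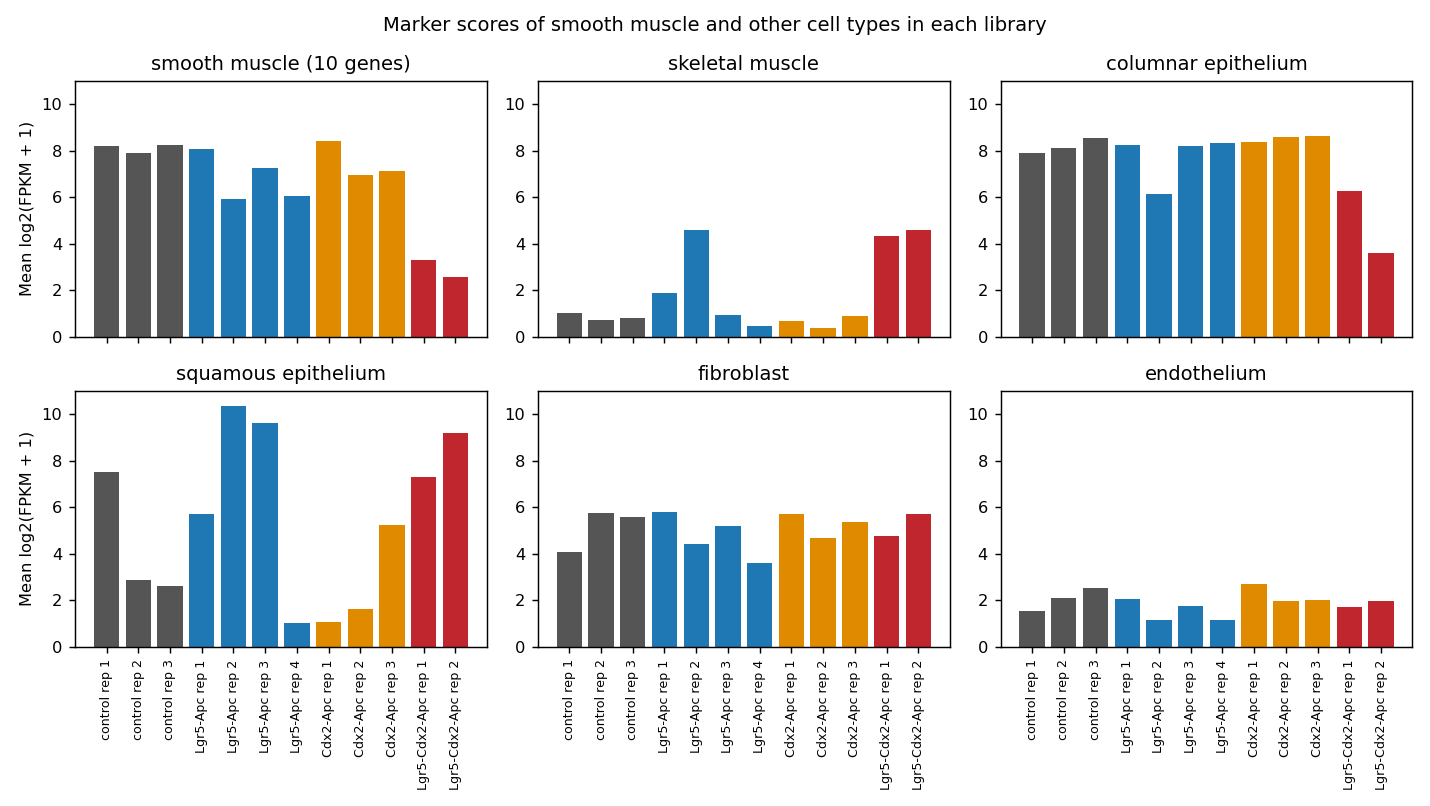
Mean log2(FPKM + 1) of the 10 contractile genes and of markers of 5 other cell types, 1 bar per library in the 4 groups. The contractile genes score 3.30 and 2.55 with both drivers and 5.93 to 8.41 in the 10 others, while Lgr5-Apc replicate 2 lies near the Lgr5-Cdx2-Apc libraries for skeletal muscle.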

How the data were processed

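RNA was extracted with a column kit and DNase and made into strand-marking libraries (NEBNext Ultra II directional), per the labels' protocols. The submitters' processing notes name STAR, Cufflinks, Cuffdiff and mm10, with no version. The deposited table holds 1 FPKM value per gene and library, made by the authors; its header names no unit, and the values do not contradict FPKM. Whether libraries were rescaled to one another, and the annotation, are not given in the sources used here. Depth is unknown.

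Of 27831 lines, 25 had names turned into dates and were kept unnamed. Of 44 symbols on several lines, the highest line by mean was used, leaving 27785 genes. Positions came from GENCODE M21 (GRCm38, the build of mm10), which held 95.9% of the symbols; Mrtfa, Mrtfb, Gucy1a1 and Gucy1b1 were found under older symbols.

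The 17360 genes that reached 1 FPKM in 2 or more libraries were tested as log2(FPKM + 1) with limma 3.58.1 in R 4.3.3: 1 fit of all 12 libraries, a term per group, trended empirical Bayes moderation and 7 two-sided contrasts. Calls have a Benjamini-Hochberg adjusted p below 0.05 within a contrast over all genes tested. The script was tested on simulated data. Same-number libraries were not paired in the fit, since the labels do not say that they share an animal or day. The 15 same-number pairs had deviations with a median correlation of -0.02 (5 above 0.1, the highest 0.42), which does not settle it.

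The rule for named genes took the 10 members, of every other list the 2 to 4 genes with the smallest p, and the 10 genes most correlated with the members' mean, among those with a mean FPKM of 5 or more. Genes of the lists named as not called, and Acta1, Myh4, Krt4 and Krt13, fall outside it. Their values were known when they were chosen. Of the marker and list genes, some are not reported here. The members, lists and markers were chosen with earlier results of these data known. There were 24 alternatives, which changed the pseudocount, the filter, the scaling, the fit or the libraries used; leaving out the 3 libraries richest in squamous markers among control and Lgr5-Apc was added after seeing the data.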

Additional observations from a re-analysis of the deposited data

Results flagged for a closer look

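The columnar epithelium score in Lgr5-Apc stood out because 1 sample lay far from the others: replicate 2 scored 6.14 and the other 3 scored 8.19 to 8.33, a gap of 0.937 of the group's range, above the critical value of 0.829. Of 21 sets of values tested this way in that group this was the only one above it, and chance marks about 1 group in 20. The same library had 0.124% of its total in the contractile genes, the lowest share among the 4 Lgr5-Apc libraries, and 536 FPKM of skeletal muscle markers.

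The departure from additivity on the log2 scale was called in 4 of the 10 contractile genes, beside 0.392% of all genes tested in this direction. The count is unstable and ran from 0 to 7 over the alternatives. The groups also differed in markers of other cell types, and the part of these in the departure was not tested. The departure was -5.15 for Actg2, -4.19 for Acta2, -4.34 for Cnn1 and -4.23 for Myl9 (limma, adjusted p = 0.0236, 0.0393, 0.0473 and 0.0386). Both Lgr5-Cdx2-Apc libraries were below all 10 others for each of these genes, which does not bear on additivity.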

How the results depend on the processing

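The 24 alternatives left the members called lower in Lgr5-Cdx2-Apc against control at 9 or 10, except without Lgr5-Cdx2-Apc replicate 2, where the count was 6 (range 6 to 10 leaving out 1 library). Against Cdx2-Apc it was 5 to 10 leaving out 1 library, and against Lgr5-Apc 0 to 9, with 2 in a fit on the compared groups alone. The count of departures from additivity, 4, became 0 with a pseudocount of 0.1 FPKM or a mean of at least 5 FPKM, 2 with a pseudocount of 5 FPKM, 1 with quantile normalization or with short RNAs removed, and 7 with library quality weights or without the 3 squamous-rich libraries (chosen after seeing the data). Leaving out 1 library gave 0 to 7. The cause was not tested. That contrast has no fit on compared groups alone, since it uses all 4. No member was called in either single-driver group against control, or between these groups, under any alternative run, and the sign of each member against control stayed the same. Between Lgr5-Apc and Cdx2-Apc the sign reversed for Mylk, at 0.0669 with quality weights, 0.17 without the squamous-rich libraries and -0.62 to 0.20 leaving out 1 library, and for Smtn, at 0.10, 0.11 and -0.54 to 0.34, and 0.11 with a replicate block. Removing short RNAs moved the median of all genes to 0.117 for Lgr5-Cdx2-Apc against either single-driver group and 0.151 for the departure from additivity. The labels do not say whether the replicate numbers pair the samples. With the replicate block the counts were 10 against control, 9 against Lgr5-Apc, 10 against Cdx2-Apc, 4 for the departure from additivity and 0 elsewhere. Under that block Smtn was called against Cdx2-Apc (adjusted p = 0.0292), and Myh11 and Tagln took the place of Acta2 and Cnn1 among the 4 departures. Shares of all genes called under most of these alternatives are not given here. Read depth is unknown, so what it limits cannot be given.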

Other observations

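The 8 enteric neuron markers summed to 21.6 to 52.2 FPKM in control and 4.31 and 3.69 in Lgr5-Cdx2-Apc, and 3 of the 7 tested were called lower there (limma, adjusted p below 0.05): Vip, a relaxing neuropeptide, at -3.36 (adjusted p = 0.0172), Uchl1, a neuronal ubiquitin hydrolase, at -3.23 (adjusted p = 0.0389) and Snap25, a protein of synaptic vesicle fusion, at -2.66 (adjusted p = 0.0238). The order of the libraries was not that of the contractile genes: Lgr5-Apc replicates 1 to 4 summed to 15.6, 3.44, 8.47 and 51.9 FPKM, and Cdx2-Apc replicates 1 to 3 to 66.0, 36.8 and 25.1 FPKM. Among enteric glia markers, Gfap was called lower, at -1.30 (adjusted p = 0.0390), while Sox10 and S100b were not, at 0.12 and -0.05.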
